A study of Homo sapiens with 15 samples.

Results

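The 9 genes described here encode 8 transcription factors of the epithelial to mesenchymal transition (EMT) and vimentin, the filament protein most used as a marker of mesenchymal cells. The factors are ZEB1, ZEB2, SNAI1 (Snail), SNAI2 (Slug), TWIST1, TWIST2, PRRX1 and FOXC2, and the gene of vimentin is VIM. They were selected by gene symbol, and all 9 were found among the 33158 gene symbols of the expression table.

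In EMT, epithelial cells lose the junctions that hold them to their neighbours and take on the shape, filaments and motility of mesenchymal cells. ZEB and Snail proteins bind E-boxes in the promoters of epithelial genes such as CDH1 (E-cadherin) and repress them, while the Twist proteins, PRRX1 and FOXC2 are further inducers of the programme. ZEB1 and ZEB2 are themselves held down in epithelial cells by microRNAs of the miR-200 family and by miR-205, and in breast cancer EMT has long been linked with the CD44+CD24-/low phenotype by which cancer stem cells (CSCs) are sorted.

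The study sequenced mRNA of 3 established triple negative breast cancer cell lines, with 3 libraries in each of 5 groups. CD44+CD24-/low cells (CSCs) and the remaining cells (non-CSCs) were separated by flow cytometry from SUM149PT and from HCC1937, and SUM159PT, a line taken by the study to consist mainly of CSCs, was used without sorting. No treatment and no genetic change is given for any group, so the groups differ by line and by sorted fraction. Each line stands for itself only, and nothing says that the 3 libraries of a group came from separate cultures, so p-values measure the spread between libraries, which may be technical.

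Expression is given as FPKM, read fragments scaled to transcript length and to the mapped fragments of the library, a scale on which levels of different genes can be compared. The number of reads behind a value is unknown, and an exact 0 was read only as listed at 0. The FPKM values of a library summed to 291276 to 366532 in the 12 sorted libraries and to 634746 to 652082 in SUM159PT, so levels in SUM159PT depend on how libraries are scaled. CD24, the marker that is low on sorted CSCs, averaged 7.74 FPKM in SUM149PT CSCs against 139.5 in SUM149PT non-CSCs, 23.3 against 150.04 in the HCC1937 fractions, and 0.729 in SUM159PT. CD44 averaged 84.4 FPKM in SUM149PT CSCs against 64.5 in SUM149PT non-CSCs, 106.3 against 97.8 in the HCC1937 fractions, and 28.8 in SUM159PT. In RNA of sorted populations, fewer cells that express a gene and less RNA per cell cannot be told apart.

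The first question was how the 9 genes differ between CSCs and non-CSCs of the same line. Changes are log2 fold changes of FPKM + 0.1 tested with limma across all genes whose mean in the line reached 0.1 FPKM, and a gene counts as called up to an adjusted p of 0.05. In SUM149PT all 9 genes were tested. ZEB1, ZEB2, SNAI2, TWIST2, PRRX1, FOXC2 and VIM were higher in CSCs (7 of 9, against 33.3% of all genes tested), and SNAI1 and TWIST1 were lower (2 of 9, against 41.5%). Under a stricter limit (adjusted p up to 0.0001, log2 fold change of 1 or more either way), 6 of these genes were higher and 1 was lower, against 20.5% of all genes called in either direction. The median log2 fold change of the 9 genes was 1.92, and that of all genes tested was -0.11 (0.11 with quantile normalization).

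In HCC1937 7 of the 9 genes were tested, since TWIST2 and PRRX1 lay under the minimum. ZEB1, ZEB2, TWIST1 and VIM were higher in CSCs (4 of 7, against 10.3% of all genes tested) and 0 were lower (against 15.3%). SNAI1, SNAI2 and FOXC2 were not called. The median log2 fold change of the 7 genes was 1.63, and that of all genes tested was -0.03. At the stricter limit limma called 0 of the 7 genes and 0% of all genes, while 6 of the 7 genes were higher at an unadjusted p of at most 0.05, against 16.1% of all genes. With quantile normalization the share of higher genes among all called genes moved from 40.3% to 52.9% in HCC1937 and from 44.6% to 55% in SUM149PT. It was 54.3% in HCC1937 with TPM scaling. No scaling tried turned the direction of a called member within a line.

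**Figure D1:**
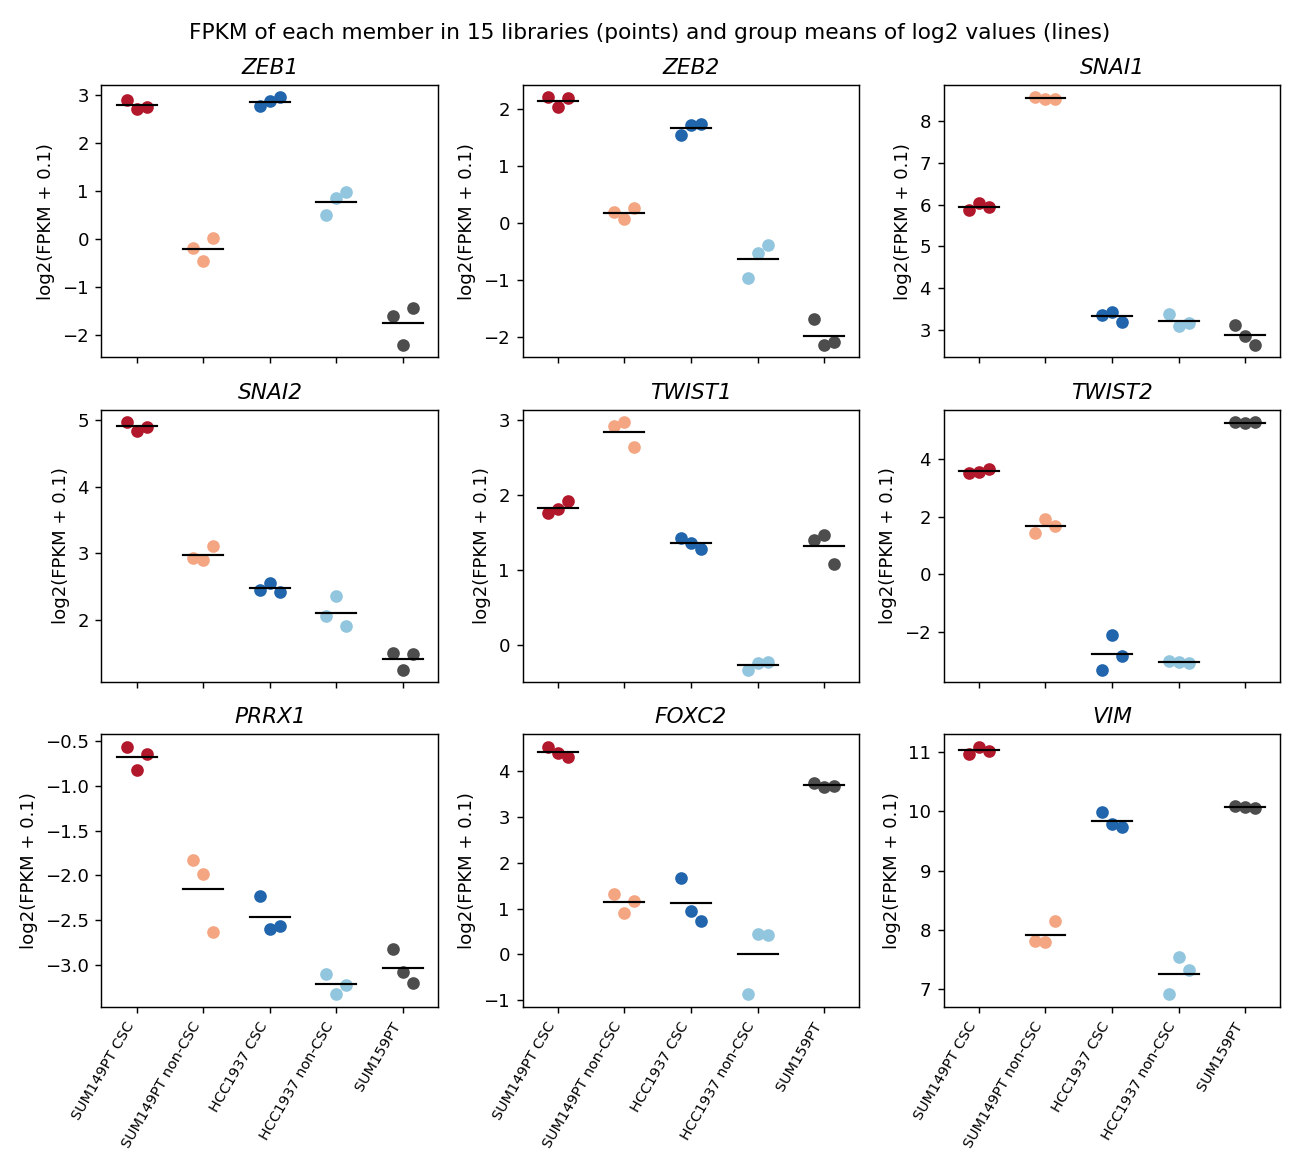
Log2(FPKM + 0.1) of each of the 9 genes in the 15 libraries (points, 3 per group) with the mean of the log2 values of each group (lines). ZEB1, ZEB2 and VIM are higher in CSCs than in non-CSCs in both sorted lines, SNAI1 is highest in SUM149PT non-CSCs, and TWIST2 is highest in SUM159PT.

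ZEB1 and ZEB2 are zinc finger proteins with clusters of fingers at both ends, which bind paired E-boxes and recruit corepressors. ZEB1 lies on the plus strand of chromosome 10 of GRCh38 (31318495 to 31529814) and ZEB2 on the minus strand of chromosome 2 (144364364 to 144524583). ZEB1 was listed at 7.39, 6.43 and 6.63 FPKM in SUM149PT CSCs and at 0.778, 0.633 and 0.916 FPKM in SUM149PT non-CSCs. The lowest CSC library lay far above the highest non-CSC library. The mean was 8.79 times as high in CSCs, and the log2 fold change was 2.99 (standard error 0.134, limma adjusted p = 1.23e-05), higher in 3 of 3 CSC libraries. In HCC1937 ZEB1 was listed at 6.77, 7.22 and 7.67 FPKM in CSCs and at 1.32, 1.71 and 1.87 FPKM in non-CSCs. Again the fractions did not overlap. The log2 fold change was 2.09 (standard error 0.138, limma adjusted p = 0.000464), and the mean was 4.42 times as high in CSCs.

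The CSCs of the 2 sorted lines had nearly the same ZEB1 level, at 6.82 ± 0.507 FPKM in SUM149PT and 7.22 ± 0.450 in HCC1937 (SD, n = 3), and their libraries overlapped. The non-CSCs differed, with 2.10 times as much ZEB1 in HCC1937 as in SUM149PT and no overlap. The CSC effect on ZEB1 was larger in SUM149PT, by 0.90 on the log2 scale (standard error 0.2005, limma interaction adjusted p = 0.00305). A pseudocount of 1 gave 0.49 and quantile normalization 1.23, the ends of the range over 21 alternatives, each of which kept the call.

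ZEB2 was listed at 4.54, 4.04 and 4.50 FPKM in SUM149PT CSCs and at 1.04, 0.956 and 1.10 FPKM in non-CSCs. The fractions were clearly apart, with a log2 fold change of 1.98 (standard error 0.0800, limma adjusted p = 8.85e-06). In HCC1937 ZEB2 was listed at 2.83, 3.22 and 3.26 FPKM in CSCs and at 0.413, 0.597 and 0.670 FPKM in non-CSCs. The fractions were apart here too, and the log2 fold change was 2.30 (standard error 0.168, limma adjusted p = 0.000595). The difference between the lines in the CSC effect on ZEB2, -0.32 (standard error 0.193), did not pass the limit (limma adjusted p = 0.177). The order of the ZEB2 means ran down from SUM149PT CSCs over HCC1937 CSCs, SUM149PT non-CSCs and HCC1937 non-CSCs to SUM159PT, with no overlap between any neighbouring groups.

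Both ZEB genes had their lowest FPKM in SUM159PT. ZEB1 was listed there at 0.228, 0.117 and 0.268 FPKM and ZEB2 at 0.211, 0.128 and 0.135 FPKM. These levels lay under every sorted library, CSC or non-CSC. The ranks within a library, which do not depend on scaling between libraries, showed a smaller gap. ZEB1 ranked above 60.2 to 64.9% of all genes in the SUM159PT libraries, against 61.1 to 63.4% in SUM149PT non-CSCs and 80.4 to 82.3% in HCC1937 CSCs. ZEB2 ranked above 60.6 to 63.8% in SUM159PT, against 59.9 to 62.3% in HCC1937 non-CSCs. By rank, then, both ZEB genes in SUM159PT overlapped a non-CSC group and lay below the CSCs of both lines. More genes are listed at or near 0 in SUM159PT, where 8534 to 8670 genes exceeded 1 FPKM, while 11249 to 11997 did in sorted libraries. A low FPKM therefore takes a higher rank in SUM159PT than in a sorted library, which holds for the ranks of other members below.

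The microRNAs that target ZEB1 and ZEB2 are shown because their seeds define the sites counted in these transcripts. Sequences are from RefSeq on GRCh38.p14, 5′ to 3′, with bases 2 to 8 (the seed) in capitals, and all 6 microRNAs searched were matched. The first 3 share a seed, the next 2 share another that differs from it, and miR-205 has its own.
miR-200b-3p (chr1:1167160-1167181, plus strand): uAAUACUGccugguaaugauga
miR-200c-3p (chr12:6963742-6963764, plus strand): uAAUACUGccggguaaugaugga
miR-429 (chr1:1169055-1169076, plus strand): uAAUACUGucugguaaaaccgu
miR-200a-3p (chr1:1167916-1167937, plus strand): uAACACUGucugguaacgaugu
miR-141-3p (chr12:6964155-6964176, plus strand): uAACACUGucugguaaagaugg
miR-205-5p (chr1:209432166-209432187, plus strand): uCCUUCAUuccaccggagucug

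The longest 3′ untranslated region annotated for ZEB1, of 2549 bases, holds 6 matches to the complement of the first seed (CAGTATT), 3 to that of the second (CAGTGTT) and 1 to that of miR-205 (ATGAAGG). That of ZEB2, of 5370 bases, holds 5, 4 and 0. Per kilobase the first site came to 2.35 in ZEB1 and 0.931 in ZEB2, against 0.117 over the longest 3′ untranslated regions of 19127 coding genes, of which 16.02% hold at least 1. Across those genes 18.3% hold the second site and 11.7% the site of miR-205. Among the other members, SNAI2 holds 1 match to the first site, and SNAI1, TWIST1, TWIST2, PRRX1, FOXC2 and VIM hold 0 of the 3 kinds. A match is a run of letters and no evidence of binding.

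Mature microRNAs were not measured by these libraries, and the 6 hairpin genes were listed at 0 in all of them. MIR205HG, the host transcript of miR-205, was listed at 12.8, 12.9 and 12.7 FPKM in SUM149PT CSCs and at 31.2, 28.7 and 31.5 in non-CSCs. In HCC1937 it was listed at 60.2, 47.02 and 52.8 FPKM in CSCs and at 259.0, 235.5 and 197.5 in non-CSCs, and in SUM159PT at 1.21, 1.30 and 1.27. MIR205HG fell in CSCs of both lines, by log2 fold changes of -1.24 and -2.11 (limma adjusted p = 1.58e-05 and 0.00048), while ZEB1 and ZEB2 rose. Other groups did not all follow this order. SUM159PT had the lowest mean of MIR205HG, ZEB1 and ZEB2 alike, and HCC1937 non-CSCs had more MIR205HG and more ZEB1 than SUM149PT non-CSCs. Between the sorted lines ZEB2 followed the order, with more MIR205HG and less ZEB2 in both HCC1937 fractions than in those of SUM149PT. ZEB2 averaged 0.560 FPKM in HCC1937 against 1.03 in SUM149PT for non-CSCs, and 3.10 against 4.36 for CSCs. MIR205HG was singled out after its values were seen, and its part in the ZEB levels was not tested.

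SNAI1 and SNAI2 are Snail family zinc finger repressors that act early in EMT, and Snail protein turns over fast, so its RNA level is a partial view of it. SNAI1 lies on the plus strand of chromosome 20 (49982999 to 49988886) and SNAI2 on the minus strand of chromosome 8. SNAI1 went against the ZEB genes in SUM149PT. It was listed at 58.9, 65.4 and 61.5 FPKM in CSCs and at 378.6, 370.8 and 368.4 FPKM in non-CSCs. The non-CSC libraries lay within a narrow band, 6.02 times as high on average. The log2 fold change was -2.59 (standard error 0.0612, limma adjusted p = 2.23e-06), lower in 3 of 3 CSC libraries.

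In HCC1937 SNAI1 was listed at 10.2, 10.7 and 9.05 FPKM in CSCs and at 10.3, 8.41 and 8.89 FPKM in non-CSCs. The fractions overlapped, with a log2 fold change of 0.12 (standard error 0.109, limma adjusted p = 0.483). In SUM159PT it was listed at 8.62, 7.18 and 6.16 FPKM, which overlapped HCC1937 non-CSCs. SNAI1 was set apart by line, with every SUM149PT library above every library of the other lines. The difference between the 2 CSC effects was -2.71 in log2 units (standard error 0.124, limma interaction adjusted p = 8.48e-08).

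SNAI2 moved the other way from SNAI1 in SUM149PT. It was listed at 31.1, 28.5 and 29.6 FPKM in CSCs and at 7.51, 7.36 and 8.50 FPKM in non-CSCs. The CSC libraries were 3.81 times as high on average with no overlap, a log2 fold change of 1.92 (standard error 0.0787, limma adjusted p = 9.24e-06). In HCC1937 SNAI2 was listed at 5.40, 5.77 and 5.25 FPKM in CSCs and at 4.08, 5.04 and 3.66 FPKM in non-CSCs. The fractions just failed to overlap, and the log2 fold change of 0.37 (standard error 0.129) did not pass the limit (limma adjusted p = 0.0964). Without replicate 2 of the HCC1937 non-CSCs, the highest of that fraction, it was 0.49 with a limma adjusted p of 0.0326, and over its 16 alternatives the adjusted p ran from 0.0255 to 0.255. The CSC effect on SNAI2 was larger in SUM149PT by 1.55 (standard error 0.154, limma interaction adjusted p = 1.44e-05). In SUM159PT SNAI2 was listed at 2.75, 2.30 and 2.71 FPKM, the lowest FPKM of the groups. By rank within a library it was not the lowest, above 79.5 to 80.9% of all genes in SUM159PT against 78.2 to 79.3% in HCC1937 CSCs and 74.0 to 77.1% in HCC1937 non-CSCs. A low FPKM ranks higher in SUM159PT, where fewer genes exceeded 1 FPKM.

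In SUM149PT the 2 Snail genes differed between fractions in opposite directions. Non-CSCs carried 372.6 FPKM of SNAI1 and 7.79 of SNAI2, and CSCs 61.9 and 29.7. SNAI1 had the higher mean of the pair in every group.

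**Figure D2:**
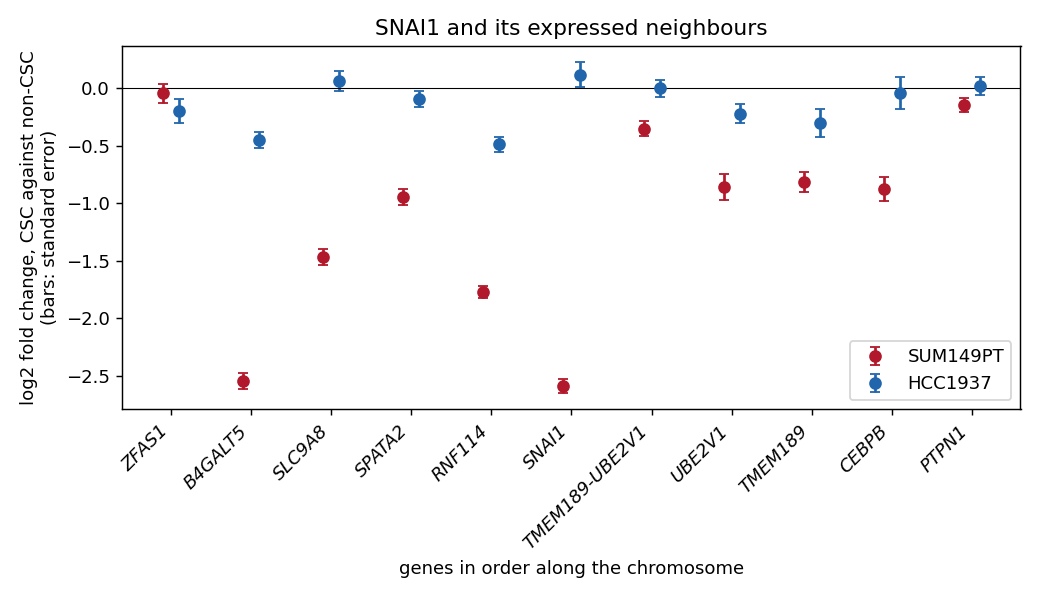
Log2 fold change of CSCs against non-CSCs (points, with standard errors) for SNAI1 and the 5 expressed genes on either side, in order along chromosome 20, in SUM149PT and HCC1937. In SUM149PT 8 of the 10 neighbours are lower in CSCs, as SNAI1 is, while in HCC1937 most lie near 0. TMEM189-UBE2V1 is a joint transcript of TMEM189 and UBE2V1, so these entries may share reads.

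Genes next to SNAI1 were then compared. Among the 5 nearest genes on each side that averaged 1 FPKM or more in the line (RefSeq order, up to 705 kilobases away), 8 of 10 were lower in SUM149PT CSCs (against 41.5% of all genes) and 0 were higher (0 also at an unadjusted p of at most 0.05 in limma), with a median log2 fold change of -0.87 against -0.11 for all genes. RNF114, the nearest, averaged 59.0 ± 2.03 FPKM in CSCs against 201.7 ± 3.73 in non-CSCs (SD, n = 3), and B4GALT5 was at 16.6 ± 1.03 and 97.1 ± 2.45. The change of B4GALT5, -2.55, was close to that of SNAI1 itself. ZFAS1, at 156.2 ± 13.3 and 160.6 ± 7.37 FPKM, and PTPN1, at 45.5 ± 0.328 and 50.3 ± 2.53, were not called. The 8 lower include TMEM189, UBE2V1 and TMEM189-UBE2V1, a joint transcript of both. These entries may share reads and are not separate neighbours. UBE2V1 was at only 0.716 and 1.37 FPKM. In HCC1937 RNF114 and B4GALT5 were called lower, by -0.49 and -0.45, and the median of the 10 neighbours was -0.14. For the other 8 members the median of 10 such neighbours lay between -0.28 and 0.58 in SUM149PT and between -0.10 and 0.06 in HCC1937. The 0.58 was that of TWIST2, where 6 of 10 were higher in SUM149PT CSCs, as TWIST2 was (against 33.3% of all genes), and 1 was lower. Next to TWIST1, which was lower there, 6 of 10 were higher and 3 lower. The neighbours of SNAI1 were looked at after its values were seen, and their part in the SNAI1 result was not tested.

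TWIST1 and TWIST2 are basic helix-loop-helix factors that bind other E-boxes than the Snail proteins and act as dimers. TWIST1 lies on the minus strand of chromosome 7 (19020991 to 19117672) and TWIST2 on the plus strand of chromosome 2 (238848032 to 238910543). How reads shared by these similar genes were assigned is not given in the sources used here. TWIST1 was listed at 3.28, 3.40 and 3.68 FPKM in SUM149PT CSCs and at 7.48, 7.76 and 6.11 FPKM in non-CSCs. All CSC libraries were lower, with a log2 fold change of -1.02 (standard error 0.109, limma adjusted p = 0.000346).

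In HCC1937 the direction was the opposite. TWIST1 was listed at 2.59, 2.47 and 2.32 FPKM in CSCs and at 0.693, 0.744 and 0.748 FPKM in non-CSCs. All CSC libraries were higher, 3.38 times on average, with a log2 fold change of 1.63 (standard error 0.0730, limma adjusted p = 0.000175). The difference between the effects was -2.64 (standard error 0.131, limma interaction adjusted p = 1.35e-07). TWIST1 was the member called in opposite directions in the 2 lines. In SUM159PT it was listed at 2.54, 2.66 and 2.00 FPKM, which overlapped HCC1937 CSCs. Within a library it ranked above 78.7 to 80.5% of all genes in SUM159PT, above 70.6 to 71.3% in HCC1937 CSCs and above 74.6 to 75.6% in SUM149PT CSCs, so by rank SUM159PT was above both. Mean FPKM was alike in SUM159PT and HCC1937 CSCs (2.40 and 2.46), so their ranks differed through the levels of other genes.

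In SUM149PT TWIST2 was listed at 11.4, 11.7 and 12.6 FPKM in CSCs and at 2.63, 3.69 and 3.14 FPKM in non-CSCs. The fractions did not overlap, and the log2 fold change was 1.89 (standard error 0.130, limma adjusted p = 5.62e-05). In HCC1937 TWIST2 was listed at 0, 0.128 and 0.0385 FPKM in CSCs and at 0.0217, 0.0191 and 0.0171 FPKM in non-CSCs, so it was at the floor in both fractions and was not tested. In SUM159PT it was listed at 39.1, 38.0 and 39.4 FPKM, the highest of all groups and 3.27 times the mean of SUM149PT CSCs. Within a library TWIST2 ranked above 95.3 to 95.4% of all genes in SUM159PT, above 87.7 to 88.6% in SUM149PT CSCs and above 70.9 to 74.4% in SUM149PT non-CSCs.

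The CSC effect on TWIST2 was larger in SUM149PT by 1.60 (standard error 0.346, limma interaction adjusted p = 0.00262). HCC1937 is near 0 here. The value ran from 1.32 to 1.91 over its 21 alternatives, and its call was lost with a pseudocount of 0.01 (1.45, limma adjusted p = 0.261) and with TPM scaling (1.42, limma adjusted p = 0.0944). Over all alternatives the adjusted p ran from 4.71e-07 to 0.261.

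PRRX1, a homeobox factor, and FOXC2, a forkhead factor, act in mesenchyme of the embryo and can induce EMT in carcinoma cells. PRRX1 lies on the plus strand of chromosome 1 (170662728 to 170739419) and FOXC2 on the plus strand of chromosome 16 (86566829 to 86569728). PRRX1 had the lowest FPKM of the members in all sorted groups except HCC1937 CSCs, where TWIST2 was lower. It was listed at 0.576, 0.463 and 0.539 FPKM in SUM149PT CSCs and at 0.182, 0.152 and 0.0616 FPKM in non-CSCs. The fractions did not overlap, with a log2 fold change of 1.47 (standard error 0.222, limma adjusted p = 0.00153). In HCC1937 it was listed at 0.114, 0.0659 and 0.0698 FPKM in CSCs and at 0.0172, 0 and 0.00744 FPKM in non-CSCs, and in SUM159PT at 0.0413, 0.0183 and 0.0086 FPKM. These values are at the floor. The difference between the CSC effects, 0.72 (limma interaction adjusted p = 0.0413), lost its call with the direction kept in 10 of 20 alternatives, among them the removal of any of 7 single libraries (adjusted p from 0.0505 to 0.0864). With a pseudocount of 0.01 it lost both direction and call, at -0.40 (limma adjusted p = 0.601; range over alternatives 0.00237 to 0.601). The log2 fold change in SUM149PT depended on the pseudocount too, from 0.43 to 2.03 over its alternatives, called in each.

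With the settings used here, FOXC2 had the largest log2 fold change of the 9 genes in SUM149PT. Over the alternatives the change ran from 2.84 to 3.47, and that of VIM from 3.03 to 3.22, so FOXC2 was not the largest in each. FOXC2 was listed at 23.2, 21.03 and 19.8 FPKM in CSCs and at 2.41, 1.79 and 2.15 FPKM in non-CSCs. The mean was 10.1 times as high in CSCs, and the log2 fold change of 3.28 (standard error 0.125, limma adjusted p = 7.31e-06) was above 99.8% of all genes tested. In HCC1937 FOXC2 was listed at 3.07, 1.84 and 1.57 FPKM in CSCs and at 0.448, 1.26 and 1.25 FPKM in non-CSCs. Replicate 1 was the highest of the CSCs and replicate 1 the lowest of the non-CSCs, so the spread was wide, and the log2 fold change of 1.12 (standard error 0.439) was not called (limma adjusted p = 0.125). It ran from 0.67 to 1.34 over the alternatives and was 0.68 without replicate 1 of the non-CSCs. The fractions did not overlap (exact permutation test, 2-sided p = 0.1, the smallest that 3 against 3 libraries allow). In the fit of all 15 libraries, which share an estimate of the spread, its limma adjusted p was 0.0172, and over the alternatives it ran from 0.0172 to 0.38. FOXC2 in HCC1937 CSCs overlapped SUM149PT non-CSCs. In SUM159PT it was listed at 13.3, 12.5 and 12.7 FPKM, between the CSCs of the sorted lines. The CSC effect was larger in SUM149PT by 2.17 (standard error 0.490, limma interaction adjusted p = 0.00337).

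VIM lies on the plus strand of chromosome 10 (17228259 to 17237593). It was by far the most abundant of the 9 genes in 4 of the 5 groups, and the filament it encodes replaces keratin filaments as cells become mesenchymal. VIM was listed at 2008, 2187 and 2075 FPKM in SUM149PT CSCs and at 225.6, 222.0 and 283.7 FPKM in non-CSCs. The fractions were far apart, 8.57 times on average, with a log2 fold change of 3.11 (standard error 0.112, limma adjusted p = 6.27e-06). In HCC1937 it was listed at 1012, 881.8 and 856.9 FPKM in CSCs and at 121.0, 187.0 and 160.2 FPKM in non-CSCs. The CSC libraries were 5.88 times as high on average, a log2 fold change of 2.57 (standard error 0.176, limma adjusted p = 0.000502). Within the line, this change was above 99.9% of all genes tested.

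The difference between the lines in the CSC effect on VIM, 0.53 (standard error 0.218), lay just outside the limit (limma interaction adjusted p = 0.0564). It passed in 6 of 21 alternatives, among them the fits without replicate 3 of the SUM149PT non-CSCs (0.0283), without replicate 1 of the HCC1937 CSCs (0.0479) and without replicate 1 of the HCC1937 non-CSCs (0.00649). In SUM159PT VIM was listed at 1091, 1082 and 1062 FPKM, below SUM149PT CSCs and just above HCC1937 CSCs. By rank within a library the order to HCC1937 CSCs was the reverse, with VIM above 99.73% of all genes in SUM159PT and above 99.90% in HCC1937 CSCs. Even in non-CSCs VIM ranked above 98.8 to 99.6% of all genes of the library. VIM-AS1, an antisense gene at the same locus, averaged 1.76 and 0.866 FPKM in CSCs and non-CSCs of SUM149PT and 1.05 and 0.901 in HCC1937. Whether strand was used in counting is not given in the sources used here, so reads of such a pair cannot be told apart, but the antisense level was small beside VIM. ZEB1-AS1, at 2.25 and 1.88 FPKM in SUM149PT, 3.44 and 3.95 in HCC1937 and 1.18 in SUM159PT, had a mean above that of ZEB1 in both non-CSC groups (0.776 and 1.63 FPKM) and in SUM159PT (0.204).

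**Figure D3:**
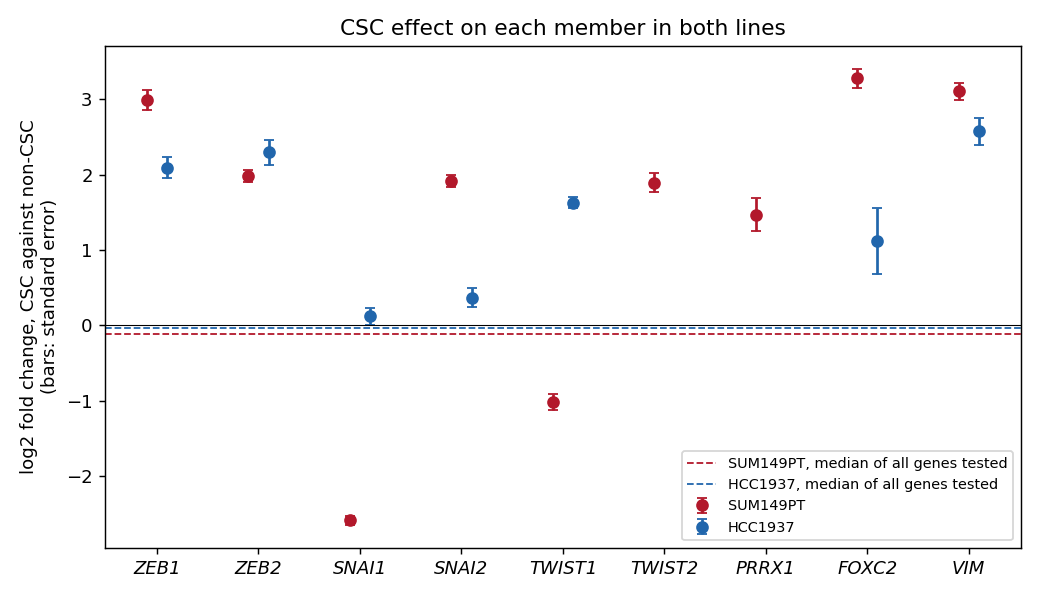
Log2 fold change of CSCs against non-CSCs for each member (points, with standard errors) in SUM149PT (9 genes) and HCC1937 (7 genes), with the median of all genes tested in each line (dashed lines). ZEB1, ZEB2 and VIM are well above 0 in both lines, and TWIST1 is below 0 in SUM149PT and above 0 in HCC1937.

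Over the 9 genes, the test of the difference between the CSC effects called 5 larger in SUM149PT (ZEB1, SNAI2, TWIST2, PRRX1 and FOXC2, against 28.1% of all genes tested) and 2 lower (SNAI1 and TWIST1, against 33%). ZEB2 and VIM were not called. TWIST2 and PRRX1 lay under the minimum in HCC1937 and entered this test through their SUM149PT levels. Their calls were lost in some alternatives, and the direction for PRRX1 depends on the pseudocount. Its ratio of mean FPKM in CSCs to non-CSCs was 3.99 in SUM149PT and 10.1 in HCC1937, where it is at the floor.

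A ratio within a library does not depend on how libraries are scaled. The ratio of VIM to the summed FPKM of KRT8 and KRT18, the keratin pair of simple epithelia, was 27.1, 26.9 and 27.2 in SUM149PT CSCs and 0.571, 0.562 and 0.688 in non-CSCs. The CSC fraction carried more VIM RNA than RNA of this keratin pair, and the non-CSC fraction less. In HCC1937 the ratio was 2.16, 2.05 and 2.23 in CSCs and 0.0986, 0.149 and 0.152 in non-CSCs. The order of the fractions was the same at a lower level, so that the ratio was 44.6 times as high in CSCs of SUM149PT and 16.1 times in HCC1937. Both differences reached the smallest value possible for 3 against 3 libraries (exact permutation test, 2-sided p = 0.1). In SUM159PT the ratio was 3.75, 3.93 and 3.67, above HCC1937 CSCs and far below SUM149PT CSCs. Other keratins are not in the ratio. KRT7 averaged 450.7 FPKM over the SUM149PT libraries and 645.3 over those of HCC1937. It fell less in CSCs than KRT8 and KRT18 did, with log2 fold changes of -0.97 in SUM149PT and -0.98 in HCC1937.

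**Figure D4:**
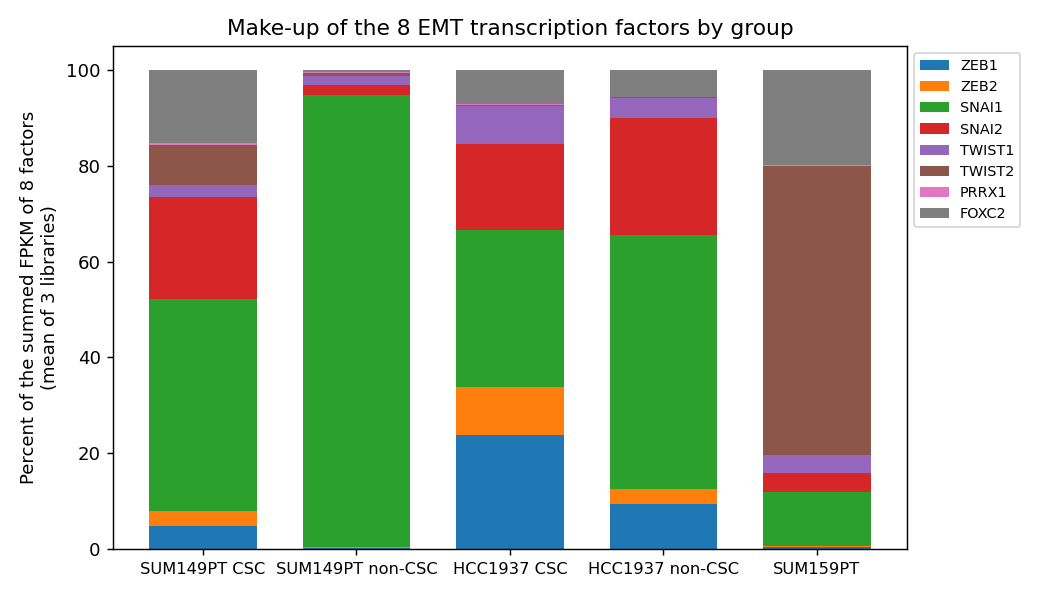
Share of each factor in the summed FPKM of the 8 EMT transcription factors, as the mean of 3 libraries in each group (bars from 0 to 100%). SNAI1 fills 94.4% in SUM149PT non-CSCs, and TWIST2 fills 60.4% in SUM159PT.

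The makeup of the 8 factors differed by line and fraction. SNAI1 was the most abundant factor in all 4 sorted groups, and TWIST2 in SUM159PT. In SUM149PT non-CSCs SNAI1 made up 94.4 ± 0.0943% of the summed FPKM of the 8 factors (SD, n = 3) and exceeded VIM itself, which was at 0.654 times its level. In SUM149PT CSCs SNAI1 made up 44.2 ± 2.22%, followed by SNAI2 with 21.2 ± 0.999% and FOXC2 with 15.2 ± 1.15%. In HCC1937 CSCs SNAI1 had 32.6 ± 1.54% and ZEB1 23.7 ± 2.28%, and ZEB1 took a larger share there than in any other group. In HCC1937 non-CSCs SNAI1 had 52.9 ± 6.15% and SNAI2 24.5 ± 3.55%. In SUM159PT TWIST2 had 60.4 ± 1.80% and FOXC2 19.9 ± 0.133%, while ZEB1 and ZEB2 together had under 1%.

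Ordered by mean FPKM, 5 of the 9 genes were highest in SUM149PT CSCs (ZEB2, SNAI2, PRRX1, FOXC2 and VIM), 2 in SUM149PT non-CSCs (SNAI1 and TWIST1), 1 in HCC1937 CSCs (ZEB1) and 1 in SUM159PT (TWIST2). HCC1937 non-CSCs were lowest for 5 genes and SUM159PT for 4 (ZEB1, ZEB2, SNAI1 and SNAI2). The count for SUM159PT holds for FPKM only. By rank within a library SNAI1 in SUM159PT (above 85.8 to 87.9% of all genes) lay over both HCC1937 fractions (82.5 to 85.8%), as SNAI2 did, and ZEB2 overlapped HCC1937 non-CSCs. These ranks carry the higher standing of a low FPKM in SUM159PT. Of the 36 neighbouring pairs of groups in these orders, 8 overlapped in their libraries (22.2%, against 41.1% of such pairs over all genes tested). The pairs that overlapped were the CSCs of the 2 lines for ZEB1, HCC1937 CSCs and non-CSCs and then HCC1937 non-CSCs and SUM159PT for SNAI1, HCC1937 CSCs and SUM159PT for TWIST1, the HCC1937 fractions for TWIST2, HCC1937 CSCs and SUM149PT non-CSCs for FOXC2 and for PRRX1, and SUM159PT and HCC1937 non-CSCs for PRRX1.

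SUM159PT was compared with the CSCs of each sorted line, and the CSCs of the lines with each other, in 1 fit of all 15 libraries. These 3 comparisons share libraries. Run and scaling of SUM159PT cannot be told apart from the line, and the median log2 fold change of all genes was -0.60 against SUM149PT CSCs and -0.85 against HCC1937 CSCs, so changes are read relative to these medians. Against SUM149PT CSCs TWIST2 was higher (1 of 9, against 28.3% of all genes) and the other members lower (8 of 9, against 53.3%). ZEB1 differed by -4.54, ZEB2 by -4.12, SNAI2 by -3.47 and SNAI1 by -3.08 (limma adjusted p from 7.05e-12 to 8.2e-11). Over the alternatives these ran from -5.81 to -2.70, -5.41 to -2.21, -4.58 to -2.52 and -4.17 to -2.77. These 4 changes were among the lowest 13.9% of all genes. FOXC2 (-0.73), VIM (-0.95) and TWIST1 (-0.52) lay near the median of all genes. FOXC2 lost its call in 10 of 15 alternatives, the removal of each of the 6 libraries compared among them (adjusted p from 0.0701 to 0.115), and TWIST1 was 0.69 with quantile normalization. TWIST2, at 1.70, ran from 0.62 to 2.01 over the alternatives and was lowest with TPM scaling, where it was not called (limma adjusted p = 0.198, over a range from 7e-11 to 0.198).

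Against HCC1937 CSCs SUM159PT was higher in TWIST2 and FOXC2 (2 of 9, against 27.6%) and lower in ZEB1, ZEB2, SNAI1, SNAI2 and PRRX1 (5 of 9, against 57.2%). TWIST2 differed by 8.05 (5.24 to 9.90 over the alternatives), from near 0 to its highest level, and FOXC2 by 2.57 (limma adjusted p = 1.45e-12 and 5.24e-06). ZEB1 differed by -4.62 (-5.81 to -2.77 over the alternatives) and ZEB2 by -3.65 (-4.84 to -1.82). SNAI1 at -0.45, SNAI2 at -1.05 and PRRX1 at -0.58 lay near the median of all genes, and quantile normalization turned the direction of all 3. PRRX1 had a limma adjusted p of 0.0115, and of 0.0521 without replicate 1 of the HCC1937 CSCs. VIM (0.24) and TWIST1 (-0.04) were not called. VIM was -0.77 with TPM scaling, -1.51 with quantile normalization and 0.79 with upper quartile scaling, and TWIST1 was 0.08 without replicate 3 of SUM159PT. With scaling TWIST1 was called in both directions, lower at -1.03 with TPM and higher at 0.49 with upper quartile scaling and 1.31 with quantile normalization (limma adjusted p = 4e-06, 0.00138 and 4.96e-08; range over alternatives 4.96e-08 to 1). The share of higher genes among all called genes moved from 32.5% to 17% with TPM scaling and to 50.2% with quantile normalization, and against SUM149PT CSCs from 34.7% to 16.9% and 50.2%.

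HCC1937 CSCs were lower than SUM149PT CSCs in 8 of the 9 genes (against 31.8% of all genes) and higher in 0 (against 45.1%; in limma 0 also at an unadjusted p of at most 0.05, against 45.8%). The largest differences were those of TWIST2 (-6.35), FOXC2 (-3.30), SNAI1 (-2.62) and SNAI2 (-2.42), each with a limma adjusted p of at most 7.4e-07. TWIST2 was near 0 in HCC1937 CSCs, and its difference ran from -8.19 to -3.61 over the alternatives. VIM differed by -1.19 and ZEB2 by -0.48. ZEB1, at 0.08, was not called (limma adjusted p = 0.702).

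The genes around the 9 members were described by lists of their partners, targets and opponents. Their counts are to be read against all genes tested, of which 33.3% were higher and 41.5% lower in SUM149PT and 10.3% and 15.3% in HCC1937. The 27 epithelial targets of the factors include the genes of adherens, tight and desmosomal junctions. Of the 26 tested in SUM149PT, 25 were lower in CSCs and 1 was higher, with a median of -3.17. CDH1 averaged 3.32 FPKM in SUM149PT CSCs against 78.3 in SUM149PT non-CSCs, and CLDN7 changed by -4.82, CRB3 by -4.77 and KRT19 by -4.75. The gene that was higher was CLDN1 (2.27). In HCC1937 25 of 27 were lower and 0 were higher, with a median of -1.82, led by RAB25 (-2.79), PRSS8 (-2.70) and ST14 (-2.66). CDH1 averaged 16.9 FPKM in HCC1937 CSCs against 82.8 in HCC1937 non-CSCs, and 0.0681 in SUM159PT.

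The promoters of CRB3 and of a second start of CLDN7 are shown because these were the named targets with the lowest log2 fold changes in SUM149PT and carry several E-boxes of the kind that ZEB and Snail proteins bind. The motif searched was CACCTG on either strand (CAGGTG when read from the other) in the 250 bases before each start. Sequences are from RefSeq on GRCh38.p14, 5′ to 3′ in the direction of the gene, with the motif in capitals.
CRB3 (chr19:6464021-6464270, plus strand): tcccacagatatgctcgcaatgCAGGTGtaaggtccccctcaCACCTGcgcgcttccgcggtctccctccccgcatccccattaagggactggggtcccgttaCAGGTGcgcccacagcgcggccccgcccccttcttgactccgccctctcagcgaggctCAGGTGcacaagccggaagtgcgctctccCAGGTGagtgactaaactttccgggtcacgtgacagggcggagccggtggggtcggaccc
CLDN7 (chr17:7262479-7262728, minus strand): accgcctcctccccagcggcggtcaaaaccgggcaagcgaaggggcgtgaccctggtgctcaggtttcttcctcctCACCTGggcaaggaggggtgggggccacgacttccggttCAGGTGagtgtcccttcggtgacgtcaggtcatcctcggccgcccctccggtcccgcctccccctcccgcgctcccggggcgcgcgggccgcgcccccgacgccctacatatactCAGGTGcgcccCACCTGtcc

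CRB3 had 5 matches, at -228, -208, -147, -89 and -60 from the start, and CLDN7 4, at -174, -135, -20 and -9. The other CLDN7 start in the table had 0. At least 1 match was found in 13 of the 22 windows of the 16 matched target genes (59.1%), and in 17.5% of all 35116 windows. Windows with 4 or more were 2 of 22 and 0.122% of all. The list was drawn up as targets of factors that bind this motif, so its higher share is no independent result. Some genes also have more than 1 window. Of the members, ZEB1, ZEB2, TWIST2, PRRX1 and VIM had 1 or more of their starts in the table, 11 windows in all. Matches were found in 2 of the 7 windows of ZEB1 and in 0 of those of ZEB2, TWIST2, PRRX1 and VIM. A match describes letters and does not show that a factor binds.

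**Figure D5:**
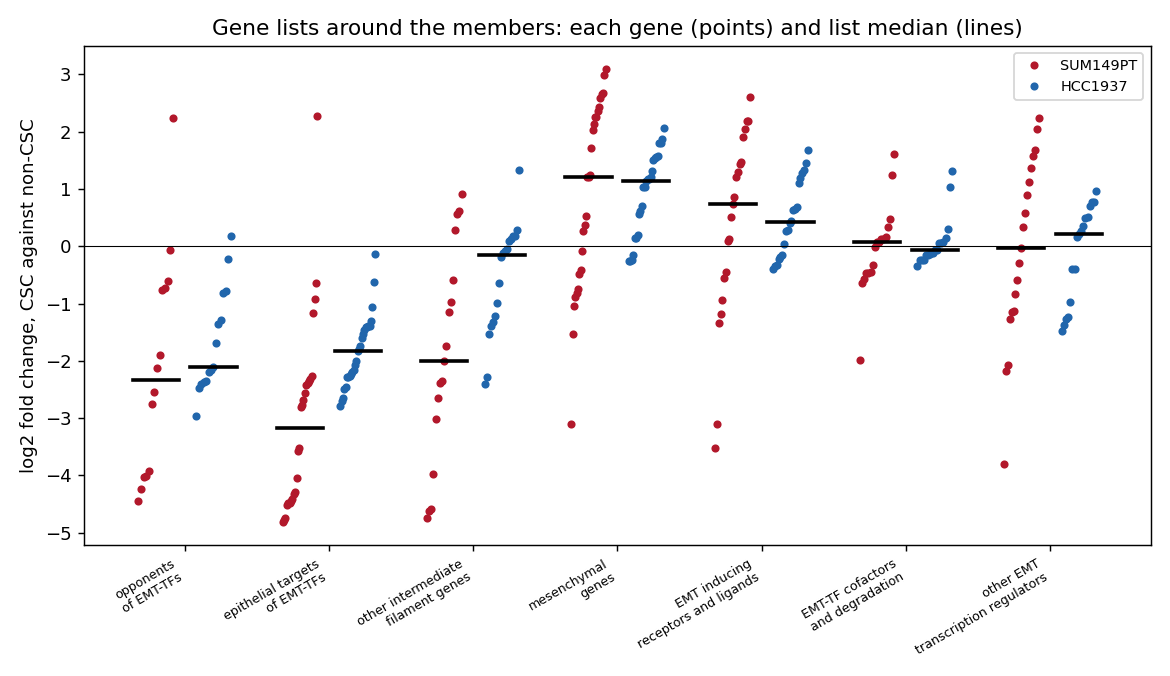
Log2 fold change of CSCs against non-CSCs for the genes of 7 lists (points, genes sorted by value within a list) and the list medians (lines) in SUM149PT and HCC1937. Epithelial targets and opponents of the EMT transcription factors lie mostly below 0 in both lines, and mesenchymal genes mostly above.

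The 16 opponents are factors that hold cells epithelial, such as the OVOL, GRHL and ELF proteins and the splicing factors ESRP1 and ESRP2. Of 14 tested in SUM149PT 12 were lower and 1 was higher (median -2.34), and of 15 in HCC1937 12 were lower and 0 higher (median -2.11). OVOL1 (-4.45 and -2.96) and GRHL2 (-4.24 and -2.47) were lower in both lines, ESRP2 (-4.03) was among the leaders in SUM149PT and ELF3 (-2.40) in HCC1937. TP63, a basal cell factor on this list, was higher in SUM149PT (2.24). Of the 30 mesenchymal genes, 18 of 27 tested were higher and 8 lower in SUM149PT (median 1.21), and 16 of 25 were higher and 0 lower in HCC1937 (median 1.15). PDGFRB (3.10), SPARC (2.98) and CDH2 (2.68) led in SUM149PT, where DCN (-3.10), TAGLN (-1.53) and FAP (-1.04) went the other way, and LOX (2.06), FBN1 (1.87) and SPARC (1.80) led in HCC1937.

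Of the 17 cofactors and proteins that degrade the factors, 5 were higher and 7 lower in SUM149PT (median 0.07), and 2 were higher and 1 lower in HCC1937 (median -0.07). In SUM149PT these shares are close to those of all genes. PRKD1 (1.61 and 1.31) and LOXL2 (1.25 and 1.04), which modify or stabilise Snail, were higher in both lines, with HDAC1 (0.47) in SUM149PT. FBXW7 (-1.98), GSK3B (-0.65) and FBXO11 (-0.57) were lower in SUM149PT and FBXO45 (-0.35) in HCC1937. Among 20 other EMT transcription regulators, 9 were higher and 9 lower of 19 tested in SUM149PT (median -0.04), and 5 were higher and 6 lower of 17 in HCC1937 (median 0.21). MSX2 (2.24), SMAD3 (2.04) and TCF12 (1.58) led upward and FOXQ1 (-3.80), PRRX2 (-2.17) and SOX9 (-2.08) downward in SUM149PT. In HCC1937 ETS1 (0.97) and HMGA2 (0.71) were higher and SOX9 (-1.27), FOXQ1 (-1.23) and SOX4 (-0.98) lower. PRRX2 thus went the other way from its relative PRRX1 in SUM149PT.

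Of 21 receptors, ligands and signal carriers that induce EMT, 12 were higher and 7 lower in SUM149PT (median 0.74), and 11 of 20 were higher and 3 lower in HCC1937 (median 0.42). FGF2 (2.61), TGFBR2 (2.19) and TGFBR3 (2.18) were higher and TGFB2 (-3.52), ACVR1B (-3.10) and JAG1 (-1.34) lower in SUM149PT. WNT5B (1.67), WNT5A (1.46) and FGF2 (1.33) were higher and SMAD3 (-0.39), MET (-0.32) and JAG1 (-0.22) lower in HCC1937. Among 19 other intermediate filament genes, 4 were higher and 13 lower of 17 in SUM149PT (median -2.01), and 1 was higher and 8 lower of 18 in HCC1937 (median -0.15). In SUM149PT, where VIM was higher, most other filament genes were lower, while in HCC1937 9 of the 18 were not called. KRT8, KRT18 and KRT19 are counted among the epithelial targets too, and SMAD3 is on the lists of inducers and of other regulators. KRT19 (-4.75), KRT5 (-4.62) and KRT6A (-4.58) were lowest in SUM149PT, and KRT6A (-2.40), KRT19 (-2.29) and KRT18 (-1.52) in HCC1937. PLEC (0.91), the gene of a filament linker on this list, LMNB2 (0.61) and LMNA (0.56) were higher in SUM149PT, and DES (1.32) in HCC1937. The medians of the cofactor list in HCC1937 and of the other regulators in SUM149PT changed sign with scaling, to 0.05 with TPM scaling and 0.04 with quantile normalization. Of the sort markers, CD24 was lower in both lines (-4.15 and -2.67) and CD44 higher in SUM149PT (0.39).

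Of the 8 fibroblast markers, which overlap the mesenchymal list, 4 of 7 were higher and 3 lower in SUM149PT CSCs (median 2.14), and 3 of 4 were higher in HCC1937 CSCs (median 1.38). They summed to 240.6 to 246.0 FPKM in SUM149PT CSCs, 71.4 to 74.4 in SUM149PT non-CSCs, 15.3 to 16.1 in HCC1937 CSCs, 6.87 to 8.90 in HCC1937 non-CSCs and 42.6 to 47.7 in SUM159PT. COL1A1 was the most abundant in every group, at 216.0 FPKM in SUM149PT CSCs, while COL1A2 in SUM149PT non-CSCs, DCN and PDGFRA in HCC1937 CSCs, 5 of the 8 in HCC1937 non-CSCs and LUM, COL1A2 and FAP in SUM159PT were under 0.05 FPKM. These sums were higher in the CSCs, as VIM was, and their part in the levels of the members was not tested. Of the 6 leukocyte markers, 2 were tested, CD14 and CD68, both lower in SUM149PT CSCs (median -2.90), while CD14 was higher in HCC1937 CSCs (0.99; median of the list 0.53). PTPRC, CD3E and LYZ, which mark leukocytes, were under 0.05 FPKM in both SUM149PT fractions, HCC1937 non-CSCs and SUM159PT, and CD3E and LYZ in HCC1937 CSCs, where CD14 averaged 60.3 FPKM. The leukocyte sums ran from 18.2 to 107.8 FPKM over the 15 libraries. The 5 endothelial markers summed to at most 1.83 FPKM in any library, with 3 lower of 3 tested in SUM149PT (median -2.48) and 1 lower of 2 in HCC1937 (median -0.52), and TEK was under 0.05 FPKM in every group.

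The genes whose log2 values followed each member most closely were taken over the 15 libraries and again over the 12 sorted ones, among 12164 and 12160 genes that averaged 1 FPKM or more. The libraries fall into 5 groups, so a correlation (Pearson r, given without a test) mainly reflects group means. VIM was most like MSRB3 (r = 0.993), KANK2 and NACC2 over 15 libraries, and MSRB3 (0.995), LAMB1 and STX2 over 12. ZEB2 shared MSRB3 (0.986 over 12), and NPR3 and LAMB1 in both sets, with STX2 first over 15 (0.983). MSRB3, a methionine sulfoxide reductase, averaged 6.72 and 1.40 FPKM in CSCs and non-CSCs of SUM149PT and 4.04 and 0.908 in HCC1937.

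ZEB1 was most like SERPINE2 (0.983), EREG and KCNQ5 over 15 libraries, and CDH2 (N-cadherin, 0.987), TTC28 and TLN1 over 12. SNAI1 followed NID2, a basement membrane protein, in both sets (0.995 and 0.998), with PAN2 and MMP13 over 15 libraries and DCN and KAZALD1 over 12. NID2 was at 56.0 ± 2.24 FPKM in SUM149PT non-CSCs, 3.41 ± 0.218 in CSCs (SD, n = 3) and averaged 0.248 in HCC1937 CSCs, 0.136 in HCC1937 non-CSCs and 0.0283 in SUM159PT. SNAI2 was most like SYNJ2 (0.986), DRAM1 and CREB5 over 15 and NREP (0.995), ARMC9 and TBC1D19 over 12.

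TWIST1 was most like MCAM (0.969), GPR3 and SAP30 over 15 libraries and PRCP (0.994), STC1 and SHOX2 over 12. TWIST2 followed the long noncoding RNA CCAT1 in both sets (0.998 and 0.997), with LOC400043 and LINC00623 over 15 and COL6A3 and SLC1A1 over 12. CCAT1 averaged 13.0 FPKM in SUM159PT, 5.54 in SUM149PT CSCs and 1.44 in non-CSCs, 0.0357 in HCC1937 CSCs and 0.0165 in HCC1937 non-CSCs, the order of the TWIST2 means. FOXC2 was most like SEC14L1 (0.981), PITPNM2 and MFSD12 over 15 and ZYX (0.988), RRAD and GALNT10 over 12. PRRX1, with a mean under 1 FPKM, was not given such genes.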

How the data were processed

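Expression was measured by mRNA sequencing in 15 libraries of 3 triple negative breast cancer cell lines. The authors deposited FPKM values by gene symbol, and every column of the table was matched to a library by its title (0 columns left over). The submitters' processing notes name Bowtie2 and GRCh38. The quantification tool, the use of strand and any normalization between libraries are not given in the sources used here. FPKM holds no read counts, so depth is unknown and precision rests on 3 libraries a group.

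Values were put on a log2(FPKM + 0.1) scale and fitted in R 4.3.3 by limma 3.58.1 (eBayes, defaults) for all genes that averaged 0.1 FPKM or more over the fitted libraries, with Benjamini-Hochberg adjustment over all genes tested and a limit of 0.05. The fold change understates the change of genes with low FPKM. Each sorted line was fitted on its own 6 libraries, the difference between lines as an interaction over 12, and comparisons between lines over 15. The fits were tested on simulated data. Within-library ratios and ranks and exact permutation tests used Python 3.11.15 with pandas 2.3.3, numpy 2.4.6 and scipy 1.17.1, and figures matplotlib 3.10.9.

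The 9 members and the 11 gene lists (160 symbols, all matched, older symbols through RefSeq) were chosen with earlier results of these data known. Named were all members, up to 3 called genes per list, line and direction with the largest absolute log2 fold change and an average of 1 FPKM or more in the higher fraction, and, for members that averaged 1 FPKM or more, the 3 genes with the highest Pearson r. Some list genes that this rule picks are not reported. Other genes are named for their place in the text, after their values were seen. Gene positions and 3′ untranslated regions came from GENCODE release 29 on GRCh38, and promoters, microRNAs and gene order from RefSeq on GRCh38.p14. Promoter entries were matched for 5 of the 9 members and 16 of the 27 epithelial targets. Alternatives were the pseudocount, the minimum, upper quartile, quantile and TPM scaling, an eBayes trend, other sets of libraries in the fit, the replicate number as a block and leaving out each library.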

Additional observations from a re-analysis of the deposited data

Results flagged for a closer look

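For 7 of the 9 genes the limma test over the 12 sorted libraries called a difference between the 2 CSC effects. The count ran from 5 to 8 over other settings. It includes TWIST2 and PRRX1, which lay under the minimum in HCC1937 and entered this test through their SUM149PT levels. Their calls therefore say little about a CSC effect in HCC1937. Of all genes tested 28.1% were called as larger in SUM149PT and 33% as lower, so differences between the lines were common. The change in SUM149PT minus that in HCC1937, in log2 units, was 0.90 for ZEB1, 1.55 for SNAI2, 1.60 for TWIST2, 0.72 for PRRX1 and 2.17 for FOXC2. It was -2.71 for SNAI1, which was called in SUM149PT and not in HCC1937. It was -2.64 for TWIST1, which was called in opposite directions. TWIST2 and PRRX1 are near 0 in HCC1937. TWIST2 was not called with a pseudocount of 0.01 or with TPM scaling (limma adjusted p = 0.261 and 0.0944; range over alternatives 4.71e-07 to 0.261). PRRX1 lost its call with the direction kept in 10 of 20 alternatives and was -0.40 with a pseudocount of 0.01, and its ratio of mean FPKM in CSCs to non-CSCs was 3.99 in SUM149PT and 10.1 in HCC1937. What the differences come from was not tested.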

How the results depend on the processing

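Within SUM149PT all 143 alternative values kept their direction and their side of the limit, and in HCC1937 108 did while 4 gained a call. The count of called members in HCC1937 was 4, and 7 in the fit of all 15 libraries, which tests 9 members with a shared estimate of the spread. When each library was left out in turn, the count ran from 9 to 9 in SUM149PT, from 4 to 5 in HCC1937, from 6 to 8 for the difference between lines, from 8 to 8 for SUM159PT against SUM149PT CSCs, from 6 to 7 for SUM159PT against HCC1937 CSCs and from 8 to 8 for HCC1937 against SUM149PT CSCs. Over the other settings it was, in the same order, 8 to 9, 4 to 7, 5 to 8, 7 to 9, 6 to 9 and 7 to 8. The VIM to keratin ratio of CSCs to non-CSCs lay between 43.0 and 47.7 for SUM149PT, and between 14.3 and 17.4 for HCC1937. With the replicate number as a replicate block the counts were 9, 4 and 7, as without it. No member reached the stricter limit in SUM149PT with this block, where the lowest limma adjusted p was 0.000344 (SNAI1). Residuals of libraries with the same number had r of 0.0226 to 0.088 for SUM149PT and -0.0777 to -0.00886 for HCC1937. Those with unlike numbers had r of -0.115 to 0.0374 for SUM149PT and -0.0477 to 0.0817 for HCC1937. Correlations this weak cannot settle whether the numbers pair libraries.

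Values changed direction as follows, and the cause was not tested. For the difference between lines PRRX1 was -0.40 with a pseudocount of 0.01 and ZEB2 8.53e-05 with a pseudocount of 1. In SUM159PT against SUM149PT CSCs TWIST1 was 0.69 with quantile normalization. In SUM159PT against HCC1937 CSCs upper quartile scaling gave SNAI1 0.0917 and TWIST1 0.49, quantile normalization gave SNAI1 0.29, SNAI2 0.24, TWIST1 1.31, PRRX1 0.0361 and VIM -1.51, TPM scaling gave VIM -0.77 (and TWIST1 -1.03, called, with its direction kept), and TWIST1 ran from -0.119 to 0.0771 when libraries were left out, above 0 without SUM159PT replicate 3. In HCC1937 against SUM149PT CSCs ZEB1 was -0.16 with upper quartile scaling, -0.0794 with quantile normalization and -0.000176 with TPM scaling. Of the other values, 168 were unchanged for the difference between lines, with 6 calls gained and 12 lost. In the comparisons with SUM159PT 121 and 119 were unchanged, with 12 and 3 calls lost and 0 and 2 gained. Between the CSCs of the sorted lines 131 were unchanged. At a minimum of 1 FPKM PRRX1 gave no value. Read depth is unknown, so it sets no stated limit on genes near 0.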
